A study of Mus musculus and synthetic RNA with 74 samples.

Results

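Of 36835 predicted RNA structures in a METTL16 in vitro methylation experiment, 132 placed the target adenosine, position 15, in an unpaired end of the RNA. Members were chosen from the predicted fold alone: position 15 is unpaired, no base pair encloses it, and every stem lies on the same side of it, or there is no stem. In 59 structures the adenosine lay in a 5' tail, with all base pairs 3' of it. In 72 structures it lay in a 3' tail, with all base pairs 5' of it. One structure (1 of 132) had no base pair at all. Each of the 131 tails with a stem held exactly 1 hairpin. The set is small but well filled, and held 20.3% and 20.2% of the reads that the 2 input libraries have on the listed structures.

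N6-methyladenosine (m6A) is a base modification of RNA that is written by methyltransferases with S-adenosylmethionine as methyl donor. METTL16 is such an enzyme, known for methylating U6 snRNA and hairpins of the mRNA for MAT2A, the synthetase that makes S-adenosylmethionine. Its known sites carry a common nonamer, and the fold around that nonamer is known to matter for methylation.

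The RNA was a chemically synthesized pool of 30 nt with the nonamer fixed at positions 12 to 20 between 11 randomized bases 5' of it and 10 randomized bases 3' of it. It is printed 5' to 3' with n for a randomized base, and the capital marks the adenosine at position 15.
library: nnnnnnnnnnnuacAgagaannnnnnnnnn
nonamer: uacAgagaa
Every structure below is therefore a fold of this pool. A stem that starts directly 3' of position 15 pairs the nonamer's own bases, from G at position 16 up to, at most, A at position 20. How many of them it pairs depends on the length of the stem. The individual sequences folded into each structure were not analysed here.

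The fold classes are shown in dot bracket notation, where a dot is an unpaired base and a pair of brackets is a base pair. The examples are the structure without a base pair, the most abundant structure of each tail, and the tail structures with the highest and the lowest called change among those averaging 50 normalized reads or more.
no base pair: ..............................
5' tail, most abundant in the input: ...............(((....))).....
5' tail, highest change: ...............(((((...)))))..
3' tail, most abundant in the input: (((....)))....................
3' tail, highest change: .(((.(...).)))................
3' tail, lowest change: ((..(....)..))................

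The comparison rests on 4 libraries. Recombinant full-length human METTL16 methylated the pool in duplicate reactions, labelled 11 and 12. From each reaction a part was kept as input, and the remainder was immunoprecipitated with a rabbit polyclonal anti-m6A antibody (m6A-IP). All 4 libraries thus carry the same enzyme treatment, no library without METTL16 was among them, and the antibody reads m6A anywhere in an RNA. The embryos of the series do not enter here. Summed over the listed structures, the input libraries held 20454163 and 18106811 reads for reactions 11 and 12, and the m6A-IP libraries 22118622 and 1154715 reads. These sums cover the table and not all sequenced reads, and every share of reads given here is a share of them. The m6A-IP library of reaction 12 was thus the shallowest, with 13 members under 10 reads there and 0 members under 10 reads in the other libraries. Its median over the members was 410 reads, against 3824.5, 3431.5 and 7286 reads in input 11, input 12 and m6A-IP 11.

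The first question was whether RNA with position 15 in a tail was recovered in the m6A-IP more often than other RNA. Members of the whole set took up 20.3% and 20.2% of the input reads of reactions 11 and 12 and 22.7% and 22.6% of the m6A-IP reads. Both m6A-IP shares were above both input shares. The log2 ratio of m6A-IP to input, summed over the set, exceeded that of all other structures by 0.20 in each reaction. The exact two-sided permutation p of the share was 0.333, the smallest that this test, which ignores the pairing by reaction, can give with 2 against 2 libraries.

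The small gain of the whole set was made of 3 unlike pieces. RNAs with a 5' tail held 2.56% and 2.55% of the input reads, and 4.41% and 4.45% of the m6A-IP reads. Their share rose 1.72-fold and 1.75-fold in reactions 11 and 12. RNAs with a 3' tail went from 5.12% and 5.10% of the input to 5.80% and 5.77% of the m6A-IP, 1.13-fold in each reaction. For the 3 pieces and the whole set, the m6A-IP and input shares did not overlap, and the permutation p was again 0.333 for each. The RNA without a base pair alone held 12.6% of each input library and 12.5% and 12.4% of the m6A-IP libraries. Its share was 0.988-fold and 0.984-fold that in the input, so that the most abundant fold of the set was the one piece with a lower share after immunoprecipitation. The widest Wilson 95% interval of these shares, of the whole set in m6A-IP 12, ran from 22.5% to 22.7%, and covers counting error only.

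Differences between these pieces were steadier over the duplicate reactions than the ratios themselves. In the deposited values, the sum of all structures had a log2 ratio of -0.06 in reaction 11 and -0.40 in reaction 12, an offset that every set of structures shares. The 5' tails had log2 ratios of 0.72 and 0.40 (mean 0.56 ± 0.23 SD, n = 2 reactions), and the 3' tails 0.12 and -0.23 (mean -0.05 ± 0.24 SD, n = 2 reactions). The difference of 5' minus 3' tails was 0.60 and 0.63, or a mean of 0.62 ± 0.02 (SD, n = 2 reactions) and 1.53-fold. Against the RNA without a base pair, the 5' tails were higher by 0.80 and 0.83 and the 3' tails by 0.20 and 0.20. These differences do not depend on how libraries are scaled, whereas the sign of the 3' tails' own ratio does, with a mean of 0.18 once libraries are scaled to their totals.

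Set against other places of position 15, the tails with a stem on the 3' side stood with the structures where the adenosine is unpaired between stems. Those 1147 structures rose in share 1.77-fold and 1.83-fold, and the 5' tails differed from them by -0.04 and -0.07 on the log2 scale. By contrast, the 3' tails lay below the between-stem structures by 0.65 and 0.70. RNAs with position 15 itself paired in a stem, 10222 structures, rose in share 1.14-fold and 1.13-fold. The 1.13-fold rise of the 3' tails was therefore no larger than that of RNAs with a paired target base. Interior loops, 934 structures, rose 1.19-fold in each reaction. RNAs with the whole nonamer inside a hairpin loop, 4545 structures, fell to 0.807-fold and 0.816-fold of their input share. The 5' tails exceeded that class by 1.09 and 1.10, the 3' tails by 0.49 and 0.47, and the RNA without a base pair by 0.29 and 0.27. The 1-nt bulge at position 15, with 269 structures, stood above all of these at 2.94-fold and 2.93-fold. Structures are not replicates of each other, and the spread behind these differences is that of 2 reactions.

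Structure by structure, 5' tails were higher in the m6A-IP much more uniformly than 3' tails. The share of reads rose in both reactions for 58 of 59 5' tails and fell in both for 0 of 59. For the 3' tails it rose in both for 54 of 72 and fell in both for 14 of 72. Over all 36835 structures 37.7% rose in both and 41.9% fell in both. The single 5' tail that did not rise in both had an interrupted stem and no read in the m6A-IP of reaction 12, where 1 read is worth 6.93 units.

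By limma's moderated test on log2(value + 5), with an adjusted p below 0.1, 35 of 59 5' tails were enriched and 0 of 59 depleted. Among 3' tails 13 of 72 were enriched and 4 of 72 depleted, and the RNA without a base pair was not called. Over all structures tested, 12.5% were enriched and 27.2% depleted, against 59.3% of 5' tails and 18.1% of 3' tails enriched. The median log2 fold change was 0.71 for the 5' tails, 0.10 for the 3' tails and -0.27 for all structures. With libraries scaled to their totals, which moved the median of all structures to -0.06, the enriched and depleted counts were 53 and 0 for 5' tails and 51 and 11 for 3' tails, beside a background of 22.5% and 24.8%. With the reaction as a block the depleted members went from 4 to 2, and the enriched from 48 to 42. Over all structures 11.6% were then enriched and 29.5% depleted. With a library left out, a group holds a single library, so calls are not given for those fits. The median log2 fold change then ranged from 0.62 to 0.88 for 5' tails and from -0.06 to 0.31 for 3' tails. Over all structures it ranged from -0.40 to -0.11. The lowest of these values came without m6A-IP 11 and the highest without m6A-IP 12.

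The RNA without a base pair was the largest single fold of the table's tails. It had 1341250 and 1329814 normalized reads in input 11 and 12, and 1269075 and 988861 in m6A-IP 11 and 12. Both m6A-IP values were below both input values. Its log2 fold change was -0.25 ± 0.53 (SE), with a limma adjusted p of 0.736. With libraries scaled to their totals the change was -0.02 with a limma adjusted p of 0.0368, a call of depletion on a very small difference. Among the 1243 structures averaging 1000 normalized reads or more over the libraries, its rank by log2 fold change was 542.

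The next question was how far the stem may lie from the target adenosine. Distance is the number of unpaired bases between position 15 and the nearest paired base, so that 0 means directly adjacent. In 5' tails the gain was largest close to the stem, and peaked 1 or 2 bases away from it. The 22 adjacent structures had log2 ratios of 0.81 and 0.44 in reactions 11 and 12. At distance 1 the 11 structures reached 1.53 and 1.36, and at distance 2 the 8 structures 1.45 and 1.09. Those are the highest values over the distances seen in 5' tails. Beyond them the ratios dropped, to 0.59 and 0.34 at distance 3, 0.19 and -0.05 at distance 4, and 0.25 and 0.03 at distance 5. The 3 structures at distance 6 had 0.41 and 0.27, and the single one at distance 7 had 0.35 and 0.20.

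As differences within a reaction, distance 1 exceeded distance 0 by 0.72 and 0.92, and distance 2 exceeded distance 4 by 1.26 and 1.14. Adjacent stems exceeded those 3 or more bases away by 0.52 and 0.37 (mean 0.45 ± 0.11 SD, n = 2 reactions). Calls in the main fit were also most frequent at distances 1 and 2: 14 of 22 adjacent 5' tails were enriched by limma, 9 of 11 at distance 1, 7 of 8 at distance 2, and 5 of 18 at 3 or more. Over all structures 12.5% were enriched. With libraries scaled to their totals, the counts were 18 of 22, 10 of 11, 8 of 8 and 17 of 18, beside 22.5% of all structures. Under that scaling the distant stems were thus called about as often as those at distances 1 and 2. Distances 1 and 2 together were carried by few reads, 0.0653% and 0.0676% of the input libraries at distance 1 and 0.111% and 0.112% at distance 2, against 1.56% and 1.55% for adjacent stems.

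In 3' tails distance had no such order. Ratios were 0.25 and -0.09 for 32 adjacent structures, -0.13 and -0.46 at distance 1, -0.01 and -0.37 at distance 2, and -0.08 and -0.42 at distance 3. They were higher again at distance 4 with 0.24 and -0.10, at distance 5 with 0.44 and 0.10, and in the single structure at distance 6 with 0.56 and 0.18. The lowest values thus lay at distances 1 to 3, between higher ones on either side. Adjacent minus 3 or more was 0.09 in each reaction, and took the opposite sign, a mean of -0.17, when distances up to 1 were set against 4 or more.

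Stem length separated the sides further, in opposite directions. Among 5' tails, stems of 2 and 3 base pairs had mean log2 ratios of 0.32 and 0.35, those of 4 base pairs 0.94, and those of 5 base pairs 1.58. The single stem of 6 base pairs had 1.33. Among 3' tails the order was turned, with 0.22 for 2 base pairs, -0.04 for 3, -0.15 for 4 and -0.29 for 5. From 3 to 5 base pairs the ratio of 5' tails rose by 1.21 and 1.25 in reactions 11 and 12, while that of 3' tails changed by -0.23 and -0.26. The gap between the sides therefore widened with the stem. It was 0.01 and 0.20 with 2 base pairs, 0.39 and 0.39 with 3, 1.08 and 1.08 with 4, and a mean of 1.87 with 5, the last a 3.65-fold difference between 10 and 7 structures. Spearman's rho of base pairs with the log2 fold change was 0.50 over all 59 5' tails and -0.14 over all 72 3' tails. Over uninterrupted stems alone it was 0.65 (46 structures) and -0.42 (43 structures), a description across structures that share libraries. The order with stem length in 3' tails was thus weak when every structure counted equally.

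Length and distance could be separated in part for the 5' tails. At distance 0, the mean log2 ratio was 0.42 with 3 base pairs, 0.99 with 4 and 2.04 with 5, and 5 exceeded 3 by 1.62 and 1.61 in the 2 reactions. At this distance an uninterrupted stem of 3, 4 or 5 base pairs also pairs 3, 4 or 5 nonamer bases. Stem length and nonamer pairing therefore cannot be told apart there. With 4 base pairs throughout, the mean ratio was 0.99 at distance 0, 2.06 at distance 1, 1.26 at distance 2, 0.48 at distance 3 and 0.08 at distance 4. Distance 1 thereby exceeded distance 4 by 2.05 and 1.92. With 5 base pairs the order differed, since adjacent stems had 2.04, distance 1 had 1.16 and distance 2 had 1.14. The highest distance therefore was not the same for stems of 4 and of 5 base pairs.

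A stem next to position 15 pairs bases of the nonamer, and a stem further away tends to leave them free, so distance and nonamer pairing go together over the 5' tails and can be separated only in part. With 4 base pairs, an uninterrupted stem and 4 nonamer bases paired, the 4 structures at distance 1 exceeded the 5 at distance 0 by a mean of 1.10 ± 0.11 (SD, n = 2 reactions). With 3 base pairs and 3 nonamer bases paired, the 3 structures at distance 2 exceeded the 6 at distance 0 by 1.26 and 1.35. Distance therefore went with a difference also where the count of paired nonamer bases was the same. The paired bases were then not the same ones, since a stem further away starts at a later base. Distance and which nonamer bases are paired cannot be told apart there. The 9 5' tails with no nonamer base paired had a mean log2 ratio of 0.20. The mean was 0.07 with 1 paired base, 0.49 with 2, 0.52 with 3, 1.09 with 4 and 2.03 with 5. All 4 structures with the 5 bases from position 16 to 20 paired were enriched by limma, against 12.5% of all structures. They were the adjacent uninterrupted stems of 5 and 6 base pairs. Even without a paired nonamer base, the 5' tails were above the RNA without a base pair by 0.37 and 0.52, and the 21 3' tails of that kind by 0.24 and 0.25. The sides differed there by 0.14 and 0.28, less than over all members.

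Single hairpins moved along the RNA showed the same contrast in paired values. The stem of 5 base pairs with a loop of 3 bases, placed directly 3' of position 15, had 1141 and 1198 normalized reads in input 11 and 12 and 7757 and 6169 in m6A-IP 11 and 12. Its m6A-IP values lay far above the input values, with a log2 fold change of 2.56 ± 0.18 (SE) and a limma adjusted p of 0.0137. It was the highest of all members, at rank 34 of all structures and rank 4 of the 1243 abundant ones.
hairpin 3' of position 15: ...............(((((...)))))..
hairpin 5' of position 15: .(((((...)))))................
Placed directly 5' of position 15, the same hairpin had 13262 and 13478 normalized reads in the input and 14942 and 11318 in the m6A-IP. The groups overlapped, and the log2 fold change was -0.04 ± 0.22 (SE), with a limma adjusted p of 0.902. One base further from the adenosine the hairpin gave 1.02 on the 3' side and -0.41 on the 5' side. Starting at position 15, which it then paired, the hairpin had 1.03, with a limma adjusted p of 0.0262. At starts 4, 5, 6 and 7 it also paired position 15 and was called depleted, from -0.74 to -1.18.

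The hairpin of 4 base pairs with a loop of 4 bases could be followed over 7 places that left the target adenosine in a tail. Starting at position 17, so that position 16 alone separated it from the adenosine, it had 155 and 171 normalized reads in the input and 1118 and 742 in the m6A-IP. The groups were far apart and the log2 fold change was 2.45 ± 0.23 (SE), with a limma adjusted p of 0.0137. Starting at position 16 it was 0.70, at 18 it was 1.21, and at 19 it was 0.41 with a limma adjusted p of 0.118. On the other side it was 0.18 when adjacent to the adenosine, -0.46 at distance 1 and -0.65 at distance 2.
start at 1: ((((....))))..................
start at 2: .((((....)))).................
start at 3: ..((((....))))................
start at 16: ...............((((....))))...
start at 17: ................((((....))))..
start at 18: .................((((....)))).
start at 19: ..................((((....))))
The structure starting at position 1 was among the most abundant 3' tails, with 32587 and 32450 normalized reads in the input and 23038 and 18526 in the m6A-IP. All its m6A-IP values were below the input values, and it was depleted by 0.65 ± 0.22 on the log2 scale, with a limma adjusted p of 0.0789. Among these 7 places, the hairpin was thus called depleted at the 5' end of the RNA and enriched where it began at 16, 17 or 18. Such calls were not particular to tails. Where position 15 was paired or in the loop, the hairpin was called depleted at starts 5, 6, 7, 8 and 14, from -0.50 to -1.01. It was called enriched at start 15, with 0.57.

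In all, 21 stem shapes, written from the first to the last paired base, occurred on both sides of position 15. They covered 50 5' tails and 48 3' tails. The 5' tail had the higher log2 ratio in both reactions for 16 of 21 shapes and the lower one in both for 0 of 21, with a median difference of 0.48 and a range from -0.01 to 2.05. Of shapes with 3 base pairs, 7 of 7 were higher as a 5' tail, with a median difference of 0.38. With 4 base pairs it was 6 of 8 with a median of 0.72, and with 5 base pairs 2 of 3 with a median of 1.95. Shapes with 2 base pairs differed little, with 1 of 3 higher and a median of 0.00.

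By input reads, the largest of these shapes were 3 base pairs with a loop of 4, 4 base pairs with a loop of 4, and 3 base pairs with a loop of 5. Summed over its places, the first had log2 ratios of 0.33 and -0.0044 as a 5' tail and 0.01 and -0.34 as a 3' tail, a difference of 0.32 and 0.34. For the second the difference was 1.12 and 1.09, and for the third 0.59 and 0.57. Each was larger than the change between reactions of that same difference.

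The most abundant 5' tails were adjacent hairpins of 3 base pairs, and none of the 4 was called. The one with a loop of 4 had 35123 and 34754 normalized reads in the input and 48279 and 38293 in the m6A-IP. Both m6A-IP values were above both input values, yet the log2 fold change of 0.30 ± 0.24 (SE) was not called, with a limma adjusted p of 0.376. With loops of 3, 5 and 6 bases the log2 fold changes were 0.57, 0.39 and 0.17. The one with a loop of 6 had 26723 and 26347 normalized reads in the input and 34912 and 25561 in the m6A-IP, so that its m6A-IP value was above the input in reaction 11 and below it in reaction 12. With libraries scaled to their totals all 4 were enriched, at 0.53, 0.80, 0.63 and 0.40 for loops of 4, 3, 5 and 6 bases.

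The 5' tails with the highest called changes had longer stems or lay 1 or 2 bases from the stem. Besides the hairpins already described, they were an adjacent stem of 5 base pairs with a loop of 5 and a stem of 3 base pairs with a loop of 6 at distance 2. The first had 412 and 417 normalized reads in the input and 2502 and 2058 in the m6A-IP, with a log2 fold change of 2.44 ± 0.16 (SE). The second had 235 and 242 in the input and 1238 and 1095 in the m6A-IP, with 2.26 ± 0.15 (SE). Both had a limma adjusted p of 0.0137, and their groups did not overlap. At the lower end, the 4 called 5' tails with the smallest changes were still enriched, from 0.39 to 0.68, and 3 of the 4 had their stem 3 or more bases away.

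Among 3' tails averaging 50 normalized reads or more, those with the highest called changes were of another kind, since 3 of 4 had an interrupted stem. The highest, 4 base pairs broken by single unpaired bases, had 279 and 240 normalized reads in the input and 704 and 575 in the m6A-IP, with a log2 fold change of 1.28 ± 0.18 (SE) and a limma adjusted p of 0.0139. All m6A-IP values were above the input values. Next were values of 1.20, 1.11 and 1.03, the last from a stem of 2 base pairs with a loop of 6. Below that mean, an interrupted stem of 2 base pairs had the highest called change of all 3' tails, 1.72 ± 0.26 (SE) with a limma adjusted p of 0.0151, on 29 and 40 reads in the input and 154 and 11 reads in the m6A-IP. Interrupted stems held only 0.108% of each input library as 3' tails, and made up 29 of 72 of them. By limma 11 of 29 were enriched, against 2 of 43 with uninterrupted stems and 12.5% of all structures. With libraries scaled to their totals, 20 of 29 and 31 of 43 were enriched, beside 22.5% of all structures, so the contrast in calls was lost. The difference in size does not depend on the scaling: interrupted stems exceeded uninterrupted ones by 0.36 and 0.37 in log2 ratio, and their median log2 fold changes were 0.38 and 0.01.

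Of the 4 depleted 3' tails, all began at the first base of the RNA and had a loop of 4 bases. The lowest had 249 and 266 normalized reads in the input and 144 and 152 in the m6A-IP, with a log2 fold change of -0.78 ± 0.16 (SE) and a limma adjusted p of 0.0246. Its m6A-IP and input values did not overlap. The others were an interrupted stem of 4 base pairs at -0.70, the stem of 4 base pairs at -0.65 and the stem of 5 base pairs at -0.60. Over all 3' tails, 36 of 72 began at the first base and 28 of 72 had a loop of 4. With libraries scaled to their totals, 11 3' tails were depleted, of which 9 began at the first base and 6 had a loop of 4.

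For 3' tails, the summed reads also differed with how close the hairpin lay to the RNA's 5' end. The 36 structures whose stem included the first base had a mean log2 ratio of -0.22. With 1 free base at the 5' end the mean was -0.04 (19 structures), with 2 it was 0.17 (10), with 3 it was 0.27 (5), and with 4 it was 0.29 (2). The difference between 2 and 0 free bases was 0.42 and 0.37 in the 2 reactions. Medians and limma calls over structures showed no such order. The median log2 fold changes were 0.06, 0.18, 0.06, 0.23 and -0.13 for 0 to 4 free bases. By limma 9 of 36, 2 of 19, 1 of 10, 1 of 5 and 0 of 2 structures were enriched, beside 12.5% of all structures. The share of reads, however, rose in both reactions for 22 of 36, 17 of 19, 9 of 10, 5 of 5 and 1 of 2 structures. That count does not depend on the scaling and was ordered from 0 to 3 free bases. At a fixed stem length and distance, free bases at the 5' end come with a shorter loop. Uninterrupted stems of 4 base pairs at distance 0 had log2 fold changes of -0.22, 0.13, 0.18 and 0.23 with 0, 1, 2 and 3 free bases and loops of 6, 5, 4 and 3 bases, so that free bases and loop length cannot be told apart there. At the 3' end of 5' tails, the mean ratios were 0.52, 0.60 and 1.04 for 0, 1 and 2 free bases and 0.36 for 3.

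A last comparison asked what a further stem on the other side of position 15 went with. All 1147 between-stem structures could be split into a 5' part and a 3' part, each of which also occurs alone as a tail. For the 3' tails, 49 of 72 had such partners. Alone they had log2 ratios of 0.11 and -0.23, and with any stem added 3' of the adenosine 0.76 and 0.47, a gain of 0.65 and 0.70. The gain was seen in both reactions for 49 of 49, with a median of 0.70. For the 5' tails, 42 of 59 had partners. Alone they had 0.72 and 0.40, and with a stem added 5' of the adenosine 0.76 and 0.47, a gain of 0.05 and 0.07. Of these, 27 of 42 were higher in both reactions with the added stem and 3 of 42 lower in both, with a median of 0.10. Both comparisons use the same between-stem structures, which held 0.799% and 0.803% of the input reads, so they are not independent of each other.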

How the data were processed

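The in vitro libraries were analysed, 2 input and 2 m6A-IP, grouped by their labels. In the deposited table the authors had kept 30-nt reads with the intact nonamer, predicted each RNA's minimum free energy structure with RNAfold, counted reads per structure and divided them by DESeq2 size factors, giving a normalized signal. Which filter left the listed structures is not given in the sources used here. The authors' columns of mean value, log2 fold change, Wald statistic and p-values were not used, nor were the embryo tables. Members and lists were chosen with earlier results of these data known.

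Whole reads per library were recovered from the smallest step between values (100% whole within 0.01 reads) and, summed over the listed structures, served for depth, shares and Wilson 95% intervals. The deposited signal was tested on log2(value + 5) with limma 3.58.1 (R 4.3.3, moderated test with a mean-variance trend, tested on simulated data) for m6A-IP against input over all 36835 structures, p-values adjusted after Benjamini-Hochberg and called below 0.1. No count model was fitted. Values of member structures were summed per library, and log2 ratios were taken within a reaction (Python 3.11.15, pandas 2.3.3, scipy 1.17.1). Fold changes understate the change of low structures because of the pseudocount. Duplicates are separate reactions on one pool, so p-values measure the spread between these libraries only. By the moderated test with its trend, the spread used for a structure is partly that of other structures of like abundance.

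Input and m6A-IP of one number come from the same reaction and are paired by design. Their deviations from the group means had a correlation of 0.02 over all structures and -0.02 over 1243 structures with a mean of at least 1000.

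Structures were named by rule: the one without a base pair, per side the 4 highest in the input and the 4 highest and 4 lowest changes called with a mean of at least 50, and the 3 largest shapes found on both sides. The hairpins followed along the RNA beyond these were chosen after their values were seen. Alternatives were other pseudocounts (1, 20), library totals as scale, a minimum mean of 20, a replicate block, array weights, medians over structures, stems of 4 or more base pairs, other distance limits and each library left out.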

Additional observations from a re-analysis of the deposited data

How the results depend on the processing

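Each change of setting below was compared with the values of the report. With the replicate block 42 members were enriched and 2 depleted, and with array weights 58 and 9. The enriched and depleted shares over all structures were 11.6% and 29.5% with the block and 11.2% and 28.8% with array weights. Pseudocounts of 1 and 20 and a minimum mean of 20 gave 49, 50 and 49 enriched and 4 depleted. Scaling libraries to their totals gave 104 enriched and 12 depleted, a change of -0.0204 for the RNA without a base pair (limma adjusted p 0.0368), 0.79 for 5' tails and 0.18 for 3' tails, whose sign turned. Of the 48 enriched members, 48 were also enriched under that scaling and 42 under the block. None of the 48 enriched or 4 depleted members was called in the opposite direction under any setting that kept all libraries.

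Leaving out each library in turn gave 14 to 108 enriched and 0 to 44 depleted members, and -0.434 to -0.0736 for the RNA without a base pair, which was called depleted without either m6A-IP library. With an m6A-IP library left out, the spread comes from the 2 input libraries alone. The lone library is then assumed to vary like them. The 5' tails ranged from 0.40 to 0.73, the 3' tails from -0.23 to 0.12 (positive without m6A-IP 12), 5' minus 3' from 0.61 to 0.63, and adjacent minus distant stems from 0.38 to 0.51 for 5' tails and 0.0872 to 0.0977 for 3' tails. The whole set minus all others ranged from 0.20 to 0.21.

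Medians over structures in place of sums gave 0.13 for 3' tails, now positive, 0.64 for 5' minus 3', 0.56 and 0.053 for adjacent minus distant stems of 5' and 3' tails, and 0.59 for the whole set minus others. With 4 or more base pairs, 5' tails reached 1.08, 5' minus 3' 1.25, adjacent minus distant 0.97 and 0.41 for 5' and 3' tails, and the whole set minus others 0.51. Setting distances up to 1 against 4 or more gave 0.52 for 5' tails and -0.17 for 3' tails, a reversal. The cause was not tested for any of these. Depth limits mainly the m6A-IP of reaction 12, where 33 members had under 50 reads.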
